A study of Homo sapiens with 6 samples.

Results

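Splicing depends on the phosphorylation of SR proteins, RNA-binding proteins rich in serine and arginine that mark exons for the spliceosome. The SRPK kinases phosphorylate them mainly in the cytoplasm and promote their import into the nucleus, the CLK kinases add further phosphates in the nucleus and release them from speckles, and DYRK1A and PRPF4B, the kinase called PRP4, phosphorylate splicing factors and, in the case of PRPF4B, components of the tri-snRNP. Transcripts of CLK kinases are themselves known for regulated retained introns. Described here are 8 such kinases, CLK1, CLK2, CLK3, CLK4, SRPK1, SRPK2, DYRK1A and PRPF4B, each found by its symbol as a single row among 47577 loci. Of the 8, 7 had values high enough to be tested and CLK1 was listed at 0 in every library.

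The values come from polyA plus RNA-seq of OVCAR3, an established line derived from an ovarian cancer of the high-grade serous type (HGSOC). In the study, 3 repeats received DMSO, the solvent, and 3 received 200 nM THZ531, which inhibits the transcriptional kinases CDK12 and CDK13 covalently, and all were collected after 6 h. Sample titles name THZ531, whereas the treatment protocol in the labels names the related compound THZ1, and the titles were followed. Reads on genes numbered 60146046 to 70986130 per DMSO library and 53054048 to 57953296 per THZ531 library, without overlap. After the deposited scaling the order was the opposite, with sums of 55389676 to 56639224 in DMSO and 65875609 to 66820371 in THZ531. The 7 tested kinases held between 381 and 11351 reads each per library. Of 8 markers of the line, all were expressed, and the epithelial genes EPCAM, KRT7, KRT8, KRT18 and CDH1 all had means of at least 5162 in both groups, while PAX8, a lineage factor of serous carcinoma, fell in THZ531 (log2 fold change -3.18, adjusted p = 4.6e-15, limma). Of 6 markers of leukocytes, fibroblasts and endothelium, CD3E was listed at 0, PTPRC, COL1A2, PECAM1 and VWF stayed between 18.2 and 149.9 in all libraries, and COL1A1 was higher in THZ531 (995 ± 47.5 in DMSO and 2190.4 ± 141 in THZ531, SD, n = 3), as was VWF (89.0 ± 28.3 and 144 ± 5.48). The part of other cell types in the results was not tested.

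Because the table gives 1 value per locus, the sequences below show what can and cannot be told apart at that level. The CLK genes share a stretch of the kinase domain, called the LAMMER motif, after which this family is also named. It lies in exon 11 of 13 of each CLK gene, and is printed with the bases that encode the motif in capitals and 21 bases on either side (hg38, CLK1 at chr2:200854636-200854695, CLK2 at chr1:155264241-155264300 and CLK4 at chr5:178605323-178605382 on the minus strand, CLK3 at chr15:74628604-74628663 on the plus strand). In CLK3 the motif is not encoded as such, and the stretch that matches CLK2 best is given. The last line is the same stretch of CLK2P1, a processed pseudogene of CLK2 at chr7:23585356-23585415 on the minus strand, which the table lists as a locus of its own.
CLK1: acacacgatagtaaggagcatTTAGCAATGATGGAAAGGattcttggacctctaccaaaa
CLK2: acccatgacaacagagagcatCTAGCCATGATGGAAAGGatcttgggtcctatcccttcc
CLK3: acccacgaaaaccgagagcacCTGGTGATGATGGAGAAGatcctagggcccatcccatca
CLK4: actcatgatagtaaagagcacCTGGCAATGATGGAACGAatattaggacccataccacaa
CLK2P1: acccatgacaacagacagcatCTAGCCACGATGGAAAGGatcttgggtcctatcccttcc
Over these 60 bases, CLK1 and CLK4 each matched CLK2 at 41 positions, CLK3 at 45 and CLK2P1 at 58. Over the whole coding sequence, the closest pair was CLK1 and CLK4 (77.1% identity at aligned positions), followed by SRPK1 and SRPK2 (67.2%) and by CLK2 and CLK3 (66.7%). The canonical transcripts of the 8 kinases shared no stretch of 50 nucleotides. CLK2P1 was 96.1% identical to the CLK2 transcript over 1810 aligned positions and shared 25 of the 2055 stretches of 100 nucleotides of CLK2, but none of 150 nucleotides, the read length of the study. How reads with mismatches were divided between both loci was not tested.

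CLK1, a nuclear SR protein kinase, had a value of 0 in all 6 libraries (chromosome 2, 200853009 to 200864658, minus strand). This zero did not stand alone. Of 97 protein-coding genes on the minus strand of chromosome 2 within 20 Mb of CLK1, 6 (6.19%) passed the minimum for expression (10 normalized reads in at least 3 libraries) and 65 were at 0 in every library, whereas 90 of 111 such genes on the plus strand of the same region (81.1%) were expressed. On the other chromosomes, 71.8% of minus-strand and 72.2% of plus-strand genes were expressed. Genes that dividing cells use were among those at or near 0, namely ORC2, a subunit of the origin recognition complex, and HSPD1, the mitochondrial chaperonin, both at 0 in all libraries, and SF3B1, a core component of the U2 snRNP, with means of 0.58 in DMSO and 0.80 in THZ531. NIF3L1 and BZW1, which flank CLK1 on the plus strand, had means of 2351 and 11668 in DMSO. The value of CLK1 is therefore reported only as listed at 0, with no statement on its expression or its response to THZ531, and the same holds for SF3B1.

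**Figure D1:**
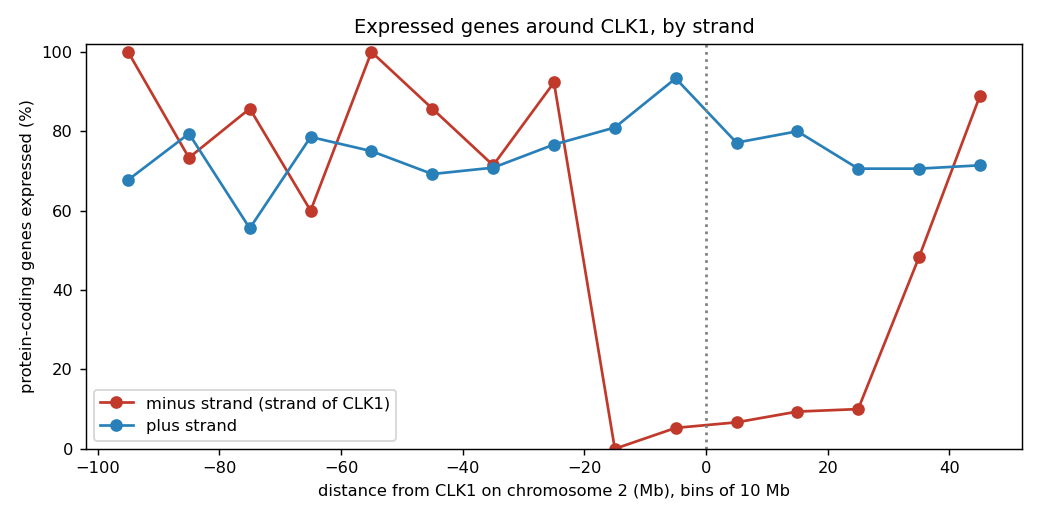
Share of protein-coding genes expressed (%, 10 or more normalized reads in 3 or more libraries) in bins of 10 Mb against the distance from CLK1 on chromosome 2, for the minus strand, which holds CLK1 (red), and the plus strand (blue). On the minus strand the share is between 0% and 10% in the 5 bins from -20 Mb to 30 Mb, whereas it stays above 70% on the plus strand in the same bins.

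For the other 7 kinases, the question was whether their RNA levels changed after 6 h of CDK12/13 inhibition. Following the thresholds of the study, loci with a 1.5-fold or larger difference and an unadjusted p no higher than 0.05 were called regulated (up- or down-regulated), and a locus was said to rise or fall when its Benjamini-Hochberg adjusted p in limma was at most 0.05, at any fold. With the scaling as deposited, CLK3 and DYRK1A were up-regulated, CLK2 was down-regulated, CLK4, SRPK2 and PRPF4B rose by less than 1.5-fold, and SRPK1 did not pass the test, whereas with 2 other scalings, described below, only the call of CLK2 held. Thus 2 of the 7 kinases were regulated upward and 1 downward, where 15.7% of the 17568 loci tested were regulated upward and 23.9% downward, or 39.5% in either direction. By the adjusted p alone, 5 rose and 1 fell, against 34.6% and 34.1% of all loci, or 68.6% in total. Values did not overlap between the groups for 6 of the 7, 5 of them higher and 1 lower in THZ531, as for 71.7% of all loci, with 36% higher and 35.7% lower. Since so many loci moved, these shares describe the kinases without setting them apart. In bulk RNA, fewer cells that express a gene and less RNA per cell cannot be told apart.

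**Figure D2:**
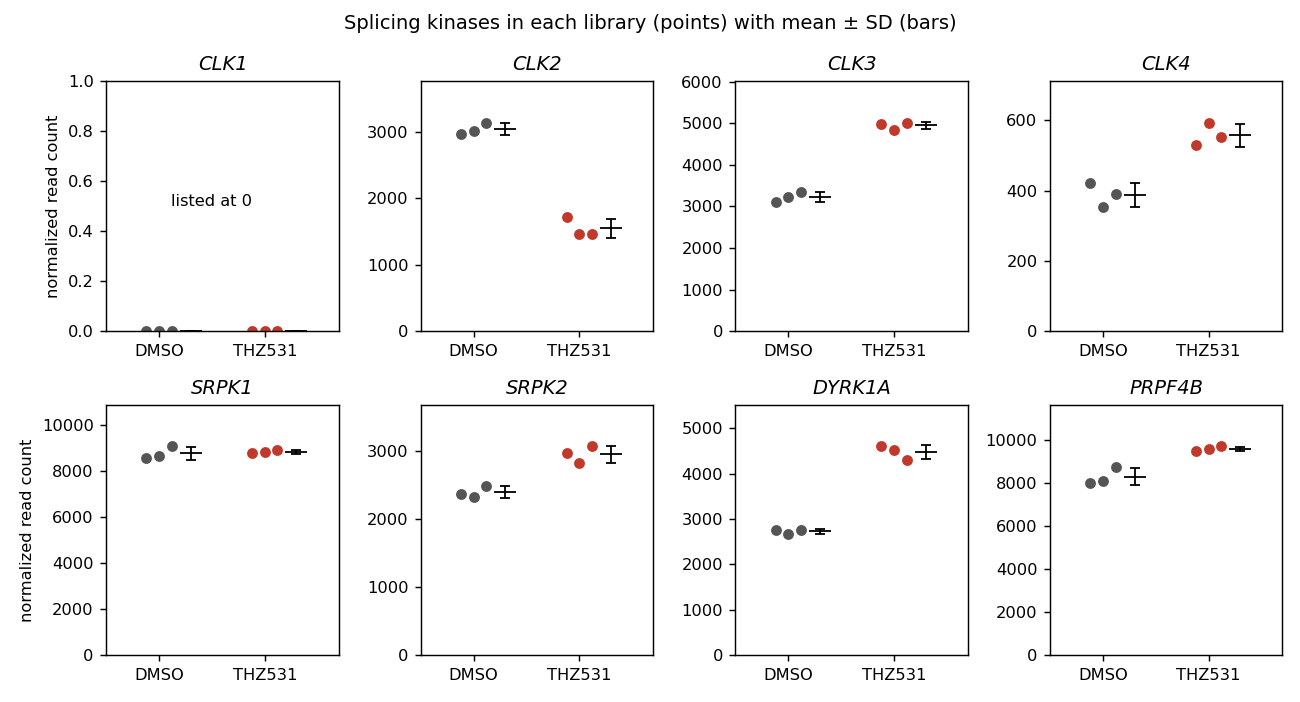
Normalized read counts of the 8 kinases in the 3 DMSO libraries (grey) and the 3 THZ531 libraries (red), with the mean and SD of each group as a bar beside the points. CLK2 lies lower in THZ531 without overlap, CLK3, CLK4, SRPK2, DYRK1A and PRPF4B lie higher without overlap, SRPK1 overlaps, and CLK1 is listed at 0.

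CLK2 (chromosome 1, 155262868 to 155277710, minus strand), a nuclear kinase of SR proteins, had normalized read counts of 2977, 3013 and 3141 in DMSO replicates 1, 2 and 3 and of 1714, 1472 and 1469.9 in THZ531 replicates 1, 2 and 3. All THZ531 values lay far below the lowest DMSO value, and the highest of them was that of replicate 1. The mean fell from 3044 ± 86.3 to 1552 ± 140 (SD, n = 3), which gave a log2 fold change of -0.97 with a standard error of 0.06 and a 95% confidence interval from -1.11 to -0.84 (limma, adjusted p = 1.0e-09). CLK2 was the only one of the 7 kinases that was down-regulated, and it was so under every scaling tried. Its pseudogene CLK2P1 had 81.1 ± 16.4 in DMSO and 38.4 ± 11.4 in THZ531 (SD, n = 3), which gave a log2 fold change of -1.08 (limma, adjusted p = 0.0037). Given the similarity of the sequences, how much of the CLK2P1 value comes from CLK2 reads was not tested.

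CLK3 (chromosome 15, 74608371 to 74645522, plus strand), a CLK paralog whose motif differs from that of the other 3 as shown above, had values of 3109, 3222 and 3340.0 in DMSO and of 4984, 4848 and 5015 in THZ531. The 3 THZ531 values lay within a narrow range well above the DMSO values. The mean rose from 3224 ± 116 to 4949 ± 88.7 (SD, n = 3), which gave a log2 fold change of 0.62 with a standard error of 0.04 and an interval from 0.53 to 0.71 (limma, adjusted p = 3.7e-09). This 1.54-fold increase was close to the threshold of 1.5, and its interval reached down to 1.44-fold.

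CLK4 (chromosome 5, 178602664 to 178630615, minus strand), the closest paralog of CLK1, was the least abundant of the measured kinases, with values of 422, 354 and 391 in DMSO and of 529, 593 and 552 in THZ531. The groups did not overlap. Its mean rose from 389 ± 34.1 to 558 ± 32.6 (SD, n = 3), which gave a log2 fold change of 0.52 with a standard error of 0.10 and an interval from 0.31 to 0.73 (limma, adjusted p = 2.0e-04). The interval of CLK4 held that of CLK3, and at 1.44-fold it was not called regulated. Among the CLK genes, CLK2 was thus lower and CLK3 and CLK4 were higher in THZ531, although CLK3 and CLK4 no longer passed the test with scaling to RPL34, as described below.

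The ratio of 2 genes within a library does not depend on how the libraries are scaled. The log2 ratio of CLK3 to CLK2 was 0.06, 0.10 and 0.09 in the DMSO libraries and 1.54, 1.72 and 1.77 in the THZ531 libraries. Both kinases thus had nearly equal read counts in DMSO, while in THZ531 CLK3 had about 3 times the reads of CLK2. The difference of the mean log2 ratios was 1.59, a 3.02-fold change (two-sided exact permutation test, p = 0.10, the smallest that 3 libraries against 3 allow, and 0.10 after adjustment over the 2 pairs measured). Per kilobase of exons of the canonical transcript, CLK2 made up 42.7% ± 0.08 of the sum of CLK2, CLK3 and CLK4 in DMSO and 19.9% ± 1.41 in THZ531 (SD, n = 3), CLK3 made up 52.6% ± 0.55 and 73.9% ± 1.12, and CLK4 4.70% ± 0.47 and 6.18% ± 0.50. The sum itself was 3307 ± 97.7 reads per kb in DMSO and 3613 ± 80.1 in THZ531. With the length of all annotated exons of each gene, a choice added after the data were seen, the share of CLK2 was 79.6% ± 0.21 in DMSO and 56.8% ± 2.29 in THZ531, and the sum was lower in THZ531 (746 ± 36.8) than in DMSO (1045 ± 28.7, SD, n = 3). The lower share of CLK2 thus held with both lengths, whereas the direction of the sum did not. Unlike the shares, the sum also depends on how the libraries are scaled, and it is given at the deposited scaling only. CLK1 is missing from this sum, and the planned ratio of CLK1 to CLK4 had no value.

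**Figure D3:**
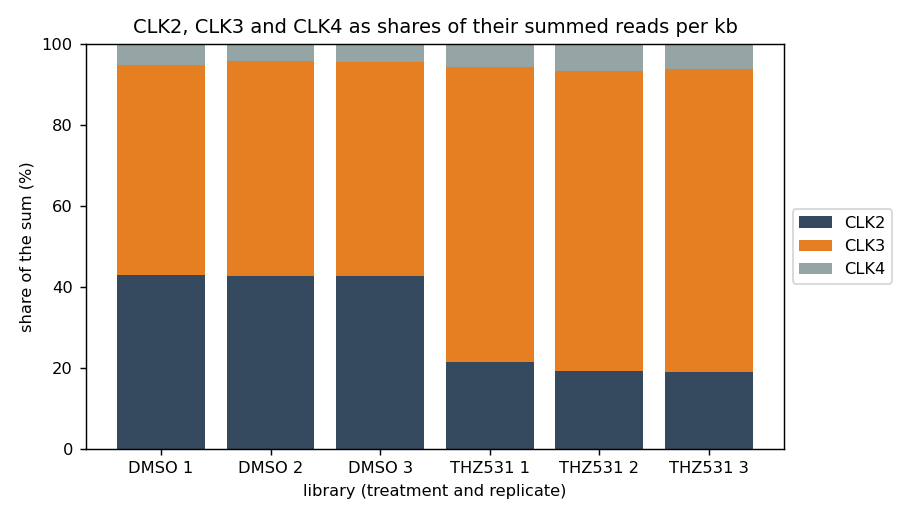
Shares (%) of CLK2, CLK3 and CLK4 in the sum of their normalized reads per kb of canonical exons, 1 bar for each library. CLK2 takes 42.7% to 42.8% in each DMSO library and 18.9% to 21.5% in each THZ531 library.

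SRPK1 (chromosome 6, 35832966 to 35921145, minus strand), which phosphorylates SR proteins in the cytoplasm, had values of 8545, 8655 and 9057 in DMSO and of 8758, 8803 and 8893 in THZ531. The THZ531 values fell inside the range of the DMSO values. The means of 8752 ± 269 and 8818 ± 68.7 (SD, n = 3) gave a log2 fold change of 0.01 with an interval from -0.07 to 0.09 (limma, adjusted p = 0.80), that is, between 0.95-fold and 1.06-fold at the deposited scaling. With every library brought to the same total, the log2 fold change of SRPK1 was -0.23 (limma, adjusted p = 3.4e-05), and with scaling to RPL34 -0.48 (limma, adjusted p = 4.8e-05).

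SRPK2 (chromosome 7, 105116374 to 105389391, minus strand), its paralog, had values of 2376, 2330.0 and 2495 in DMSO and of 2969.8, 2828 and 3072 in THZ531. Every THZ531 value was above the highest DMSO value. The mean rose from 2400.4 ± 85.1 to 2957 ± 122 (SD, n = 3), which gave a log2 fold change of 0.30 with a standard error of 0.05 and an interval from 0.19 to 0.41 (limma, adjusted p = 6.4e-05), with the direction turned to -0.19 under scaling to RPL34. Within libraries, the log2 ratio of SRPK2 to SRPK1 was -1.85, -1.89 and -1.86 in DMSO and -1.56, -1.64 and -1.53 in THZ531. This shift of 0.29 toward SRPK2, a 1.22-fold change, left the groups without overlap (two-sided exact permutation test, p = 0.10, the smallest possible, and 0.10 adjusted over the 2 pairs).

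DYRK1A (chromosome 21, 37365573 to 37575773, plus strand), a dosage-sensitive kinase that phosphorylates splicing factors among many other substrates, showed the largest increase of the 7 kinases. Its values were 2760.4, 2657 and 2763 in DMSO and 4598, 4529.8 and 4296 in THZ531. The groups stood far apart compared with the spread within each. The mean rose from 2727 ± 60.7 to 4475 ± 159 (SD, n = 3), which gave a log2 fold change of 0.71 with a standard error of 0.05 and an interval from 0.62 to 0.81 (limma, adjusted p = 1.1e-09). CLK2 and DYRK1A were the 2 kinases whose change kept its direction at an adjusted p of at most 0.05 (limma) under the deposited, same-total and RPL34 scalings alike, although DYRK1A was below 1.5-fold under the latter 2.

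PRPF4B (chromosome 6, 4021300 to 4064983, plus strand), the PRP4 kinase that acts on the tri-snRNP before the spliceosome is activated, had values of 7989.8, 8094 and 8732 in DMSO and of 9484, 9569.9 and 9685 in THZ531. DMSO replicate 3 was nearest to the THZ531 libraries, without overlap. The mean rose from 8272 ± 402 to 9579.6 ± 101 (SD, n = 3), which gave a log2 fold change of 0.21 with a standard error of 0.04 and an interval from 0.13 to 0.30 (limma, adjusted p = 2.0e-04). PRPF4B reversed with every library brought to the same total (log2 fold change -0.03, adjusted p = 0.51, limma) and with scaling to RPL34 (-0.28, adjusted p = 0.0088, limma).

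How the libraries are scaled mattered for the whole group. The deposited size factors leave the median of all loci at -0.01, whereas scaling to the same total moves it by -0.24 and scaling to RPL34, the qPCR reference L34 of the study, by -0.49 on the log2 scale. RPL34 is 1 gene, whose own change and spread enter every value scaled to it. At the deposited scaling it rose from 12999 ± 1180 to 18247 ± 86.8 (SD, n = 3, log2 fold change 0.49, adjusted p = 2.4e-07, limma). With the same total and with RPL34, no kinase was regulated upward, beside 1647 and 1078 of all 17568 loci. CLK2 stayed down-regulated under both, at -1.22 and -1.47. CLK3 and DYRK1A remained above 0, at 0.38 and 0.47 with the same total and at 0.13 and 0.22 with RPL34, where DYRK1A passed the test (limma, adjusted p = 0.028) and CLK3 did not (limma, adjusted p = 0.22). A scaling moves all loci by about the same amount, so distances from the median locus are nearly fixed by construction. At the deposited scaling DYRK1A lay 0.72 above that median, CLK3 0.63 above it and CLK2 0.97 below it. Ranked among all loci tested, the log2 fold change of DYRK1A was at percentile 86.7, that of CLK3 at 84.0, that of CLK4 at 80.0 and that of CLK2 at 16.3.

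**Figure D4:**
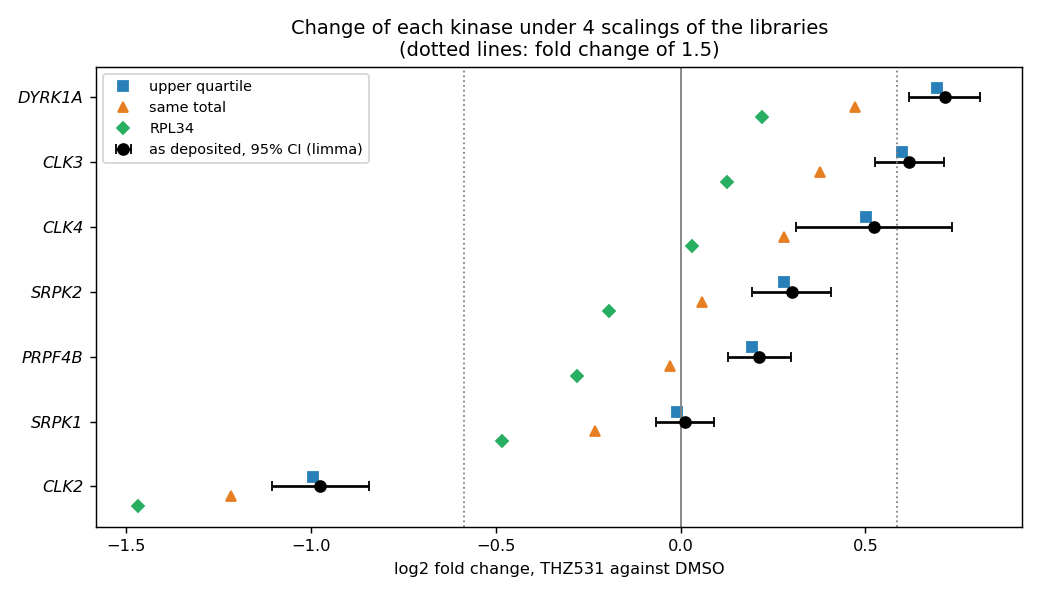
Log2 fold change of the 7 tested kinases, THZ531 against DMSO, at the deposited scaling with its 95% confidence interval in limma (black) and with the libraries scaled to the upper quartile (blue), the same total (orange) or RPL34 (green). CLK2 stays left of the dotted line at a 1.5-fold decrease under each scaling, and DYRK1A and CLK3 stay right of 0 but cross the line at a 1.5-fold increase with the same total and RPL34.

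Levels of different kinases were compared per kilobase of exons in the canonical GENCODE transcript. In DMSO the order was SRPK1 (2013 ± 62.0 normalized reads per kb, SD, n = 3), CLK3 (1739 ± 62.3), CLK2 (1413 ± 40.1), PRPF4B (1100.4 ± 53.5), SRPK2 (652 ± 23.1), DYRK1A (160.2 ± 3.57) and CLK4 (155 ± 13.6), and DYRK1A and CLK4 did not differ beyond their spread. The first 4 lay at percentile 78.6 or above of the level per kb of 14503 loci with a matched transcript. In THZ531 CLK3 took the first place (2669 ± 47.9), ahead of SRPK1 (2028 ± 15.8), and CLK2 dropped from the third to the fifth (721 ± 65.2), next to SRPK2 (804 ± 33.3), with overlapping values. The length used decides part of this order. With all annotated exons of the gene in place of the canonical transcript, CLK3, whose exons then span 19697 nucleotides, was the fifth in DMSO and in THZ531 (164 and 251 normalized reads per kb), SRPK1 was the first in both, and CLK2 was the third in both (832 and 424). The first place of CLK3 and the drop of CLK2 in THZ531 therefore hold for canonical transcripts only.

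The kinase genes differ widely in structure. The canonical transcript spans 10637 nucleotides in CLK2 and 14366 in CLK3, against 88133 in SRPK1, 159586 in DYRK1A and 272548 in SRPK2, where a single intron of 184862 nucleotides takes up most of the gene. Over the 5390 tested protein-coding genes under 20 kb, where CLK2 and CLK3 belong, the median log2 fold change was 0.02, and over the 833 genes above 200 kb, where SRPK2 belongs, it was -0.11. CLK2 and CLK3, both short genes, thus lay on opposite sides of the median of their class, and SRPK2 and DYRK1A lay above the medians of theirs (-0.11 and -0.05). CDK12/13 inhibition is known for premature cleavage and polyadenylation inside introns, and the hexamer AATAAA was therefore searched in the introns, read in the direction of the RNA. CLK3 held 1 AATAAA in 12512 intronic nucleotides and CLK2 3 in 8483, which is 0.08 and 0.35 per kb, whereas DYRK1A held 103 (0.72 per kb) and CLK4 25 (1.14 per kb), with a median of 0.70 per kb over 12978 genes. Within 3000 nucleotides of the start site, 6 of the 8 kinases and 62.3% of all these genes had an intronic AATAAA. The first AATAAA of the introns of the 2 up-regulated kinases is printed with the motif in capitals and 20 bases on either side (hg38, CLK3 at chr15:74623352-74623397, plus strand, intron 5, and DYRK1A at chr21:37368929-37368974, plus strand, intron 1).
CLK3: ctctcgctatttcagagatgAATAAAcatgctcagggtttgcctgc
DYRK1A: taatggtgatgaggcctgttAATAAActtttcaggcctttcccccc
They lie 7536 and 2176 nucleotides from the start of the canonical transcript, with a median of 1961.5 over all genes that hold the motif. A match is no evidence of cleavage, and the table gives no value for single introns, so intron retention in these kinases could not be measured from it. The study reported intron retention and alternative last exons regulated by THZ531 in OVCAR3 from its own splicing analysis, which was not used here. Of 5 loci without a symbol listed inside the 8 kinases, 4 in DYRK1A and 1 in SRPK1, none exceeded 3.41 normalized reads in any library and none was tested. Loci with a symbol overlapped 2 kinases, both on the opposite strand. SLC50A1, whose locus covers CLK2, and EDC3, which overlaps 14965 nucleotides of the CLK3 locus, had log2 fold changes of 0.02 and 0.06 (adjusted p = 0.80 and 0.33, limma). HCN3, which shares 257 nucleotides with CLK2, fell from 65.1 ± 16.2 to 22.9 ± 5.41 (SD, n = 3, adjusted p = 9.0e-04, limma). Whether the counting used the strand is not given in the sources used here.

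By Euclidean distance of the centered log2 values over the 6 libraries, among 11839 loci with a symbol and a mean of at least 100, the locus most like DYRK1A was SUCO (distance 0.02), that most like CLK3 was NCAPG (0.03) and that most like CLK2 was ZBTB22 (0.09). The nearest to CLK4 was HPSE (0.06), to SRPK1 P4HA1 (0.04), to SRPK2 TYW1 (0.03) and to PRPF4B ENOPH1 (0.03). CDK12, a target of THZ531 itself, rose from 6762 ± 105 to 8835 ± 357 (SD, n = 3, log2 fold change 0.39, adjusted p = 3.0e-07, limma), or 0.14 with the same total and -0.11 scaled to RPL34, and CDK13 had a log2 fold change of -0.02 (limma, adjusted p = 0.70).

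The genes around the kinases were examined in 5 hand-written lists with 73 genes, of which 71 were tested. Of these, 12 were up-regulated and 11 down-regulated, with a median log2 fold change of 0.18, beside 15.7% and 23.9% of all loci and their median of -0.01. With the same total 6 were up- and 12 down-regulated, and with RPL34 2 and 18, with medians of -0.07 and -0.32. Of all 17568 loci tested, 1647 were up- and 5615 down-regulated with the same total (median -0.25). With RPL34 the counts of all loci were 1078 and 7524 (median -0.50). Of the up-regulated genes named below, DYRK2, SRRM2, BCLAF1, U2AF2, PPP2CA and NFATC1 lost the call under both scalings and HIPK1, HIPK3, TNPO1 and NFATC3 with RPL34, while NXF1 and SIRT1 were called under both. The lists were written by hand with earlier results known.

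Among related kinases, 3 of 10 tested were up-regulated and 3 down-regulated, beside 15.7% and 23.9% of all loci. With the same total 2 were up- and 3 down-regulated, beside 1647 and 5615 of all 17568 loci. With RPL34 the counts were 0 and 3, beside 1078 and 7524 of all loci. HIPK1, a nuclear kinase that acts on transcription factors, rose from 1471 ± 31.9 to 3104 ± 89.5 (SD, n = 3), which gave a log2 fold change of 1.08 (limma, adjusted p = 3.2e-11). HIPK3 and DYRK2 rose as well, with log2 fold changes of 0.84 and 0.63. In the opposite direction, DYRK1B, the closest paralog of DYRK1A, fell from 4235 ± 121 to 2242 ± 103 (SD, n = 3), which gave a log2 fold change of -0.92 (limma, adjusted p = 1.4e-10), and HIPK2 fell with a log2 fold change of -0.97. Thus DYRK1A and DYRK1B moved in opposite directions, at the deposited scaling as with the same total and RPL34. HIPK4 fell from the low level of 40.3 ± 8.95 to 5.21 ± 3.32 (SD, n = 3), and SRPK3, with means of 0.88 and 5.55, was not tested. CDK11A and CDK11B, near-identical copies whose reads may be shared, had log2 fold changes of -0.04 and 0.11, both below 0 with the same total and RPL34.

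Of 14 SR proteins, all tested, none was up-regulated and 1 was down-regulated, beside 15.7% and 23.9% of all loci. The down-regulated gene was SRSF1, from 16763 ± 415 to 10897 ± 163 (SD, n = 3), which gave a log2 fold change of -0.62 (limma, adjusted p = 2.3e-10). By the adjusted p alone, 8 rose and 2 fell at the deposited scaling, against 34.6% and 34.1% of all loci, with SRSF5 highest at a log2 fold change of 0.53. With the same total, SRSF5 still rose (0.29, limma, adjusted p = 2.3e-05), while most of the others that rose no longer passed the test. The median of the SR proteins was 0.16, and it turned to -0.08 with the same total and -0.33 with RPL34. Under these 3 scalings the median of all loci was -0.01, -0.25 and -0.50. Of 20 SR-related and spliceosomal proteins, 19 were tested, without SF3B1. At the deposited scaling 3 were up-regulated and 1 down-regulated, beside 15.7% and 23.9% of all loci. The 3 were SRRM2 (log2 fold change 0.65), BCLAF1 (0.64) and U2AF2 (0.59). None of these was called with the same total (0.40, 0.40 and 0.35) or with RPL34 (0.15, 0.15 and 0.10). U2AF1, a subunit of the factor that reads the 3′ splice site, was called down-regulated at -0.99, but its groups overlapped (847 ± 294 and 466 ± 293, SD, n = 3), and its reads may be shared with a near-identical copy. The adjusted p of U2AF1 was 0.015 in limma and 0.014 in edgeR, but 0.19 in DESeq2, where it did not pass. PRPF6 and PRPF31, tri-snRNP proteins that PRPF4B phosphorylates, did not pass the test at the deposited scaling (log2 fold changes of 0.0011 and 0.03, and -0.49 and -0.46 with RPL34).

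Of 13 genes for SR protein traffic, phosphatases and scaffolds, all rose by the adjusted p at the deposited scaling, against 34.6% of all loci. Their median was 0.37, or 0.13 with the same total and -0.12 scaled to RPL34, where that of all loci was -0.01, -0.25 and -0.50. Of the 13, 3 were up-regulated and 0 down-regulated, beside 15.7% and 23.9% of all loci. SAFB2, the weakest of the 13 (log2 fold change 0.13, adjusted p = 0.047 in limma), did not pass in edgeR (adjusted p = 0.087) or DESeq2 (adjusted p = 0.056). NXF1, the main export receptor of mRNA, rose from 4389 ± 67.8 to 12015 ± 156 (SD, n = 3), which gave a log2 fold change of 1.45 (limma, adjusted p = 4.5e-14), and remained at 0.96 with RPL34. TNPO1, an import receptor, and PPP2CA, a catalytic subunit of protein phosphatase 2A, were up-regulated with log2 fold changes of 0.92 and 0.66. TNPO3, the import receptor of phosphorylated SR proteins, had a log2 fold change of 0.23 (-0.02 with the same total, -0.27 scaled to RPL34), and the catalytic subunits PPP1CA, PPP1CB and PPP1CC of protein phosphatase 1 had 0.33, 0.42 and 0.42 (-0.16, -0.08 and -0.08 with RPL34).

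Of 15 partners and substrates of DYRK1A, 6 were down-regulated and 3 up-regulated, beside 23.9% and 15.7% of all loci, with a median of -0.13. With the same total 6 were down- and 2 up-regulated (median -0.38), beside 5615 and 1647 of all 17568 loci (median -0.25). With RPL34 the counts were 8 and 1 (median -0.63), beside 7524 and 1078 of all loci (median -0.50). DCAF7, the scaffold that binds DYRK1A, fell from 6379 ± 220 to 2693 ± 138 (SD, n = 3), which gave a log2 fold change of -1.24 (limma, adjusted p = 3.9e-12). LIN52, the subunit of the DREAM complex that DYRK1A phosphorylates, fell from 1008 ± 82.4 to 461 ± 27.2 (SD, n = 3), which gave a log2 fold change of -1.13 (limma, adjusted p = 8.7e-09). The NFAT factors, which DYRK1A keeps out of the nucleus, were split, with NFATC2 at -1.79 and NFATC4 at -1.08, both down-regulated, and NFATC1 at 0.63 and NFATC3 at 0.83, both up-regulated. SIRT1, a deacetylase and DYRK1A substrate, rose with a log2 fold change of 1.25 (limma, adjusted p = 1.2e-11). DYRK1A rose while DCAF7 and LIN52 fell in the same libraries, under each scaling tried.

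**Figure D5:**
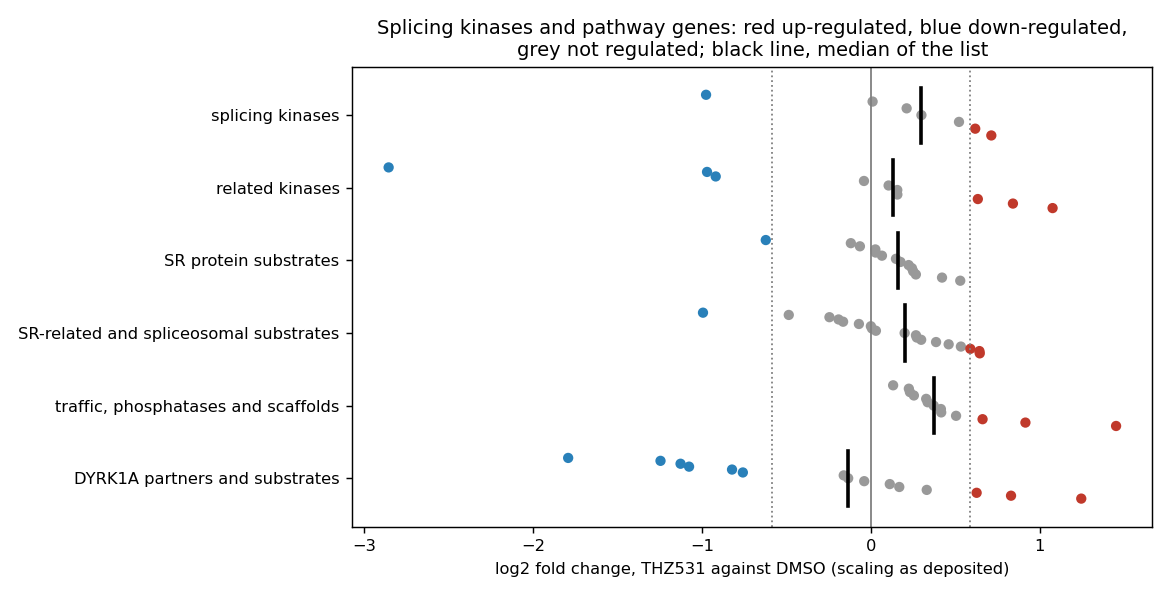
Log2 fold change, THZ531 against DMSO at the deposited scaling, of the 7 tested splicing kinases and of the tested genes of the 5 lists, 1 point for each gene, red for up-regulated, blue for down-regulated and grey for not regulated, with the median of each list as a black line. The genes of traffic, phosphatases and scaffolds all lie right of 0, while the related kinases and the DYRK1A partners reach far to both sides.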

How the data were processed

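PolyA plus RNA of OVCAR3 cells was sequenced from 3 DMSO and 3 THZ531 samples in the 150 nt paired-end format. Mapping by the authors used STAR on hg38 (2.7.5a in the submitters' processing notes, another release in the methods), with counting on FAST DB genes by featureCounts. The authors deposited a signal, namely read counts divided by a DESeq2 size factor for each library, not corrected for length. All values were whole multiples of 1 step per library (100% within 0.01 of a whole read), so reads were recovered.

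Loci at 10 or more in 3 or more libraries were tested on log2(value + 1) with limma 3.58.1 (trended variance, R 4.3.3), which understates the change of low genes, with Benjamini-Hochberg adjustment over all 17568. Recovered reads were tested with edgeR 4.0.16 and DESeq2 1.42.0. The fits were tested on simulated counts in which few loci changed, equally in both directions. That test does not bear on the choice of scaling. Exact permutation tests used scipy 1.17.1. Gene models and transcript sequences came from GENCODE v44 and hg38. Other alternatives were the pseudocount, the minimum, the scaling, a replicate block and leaving out each library. Members and lists were chosen with earlier results of these data known. Named were all members, CDK12 and CDK13, overlapping loci, CLK2P1, the nearest locus of each member, and up to 3 regulated genes per list and direction. SCAMP3, SAFB2, SRSF5, TNPO3, NFATC4, the CDK11, PPP1C and PRPF genes and the genes around CLK1 were named after their values were seen. P-values of limma rest on the spread between 3 repeats per group, combined with the spread of other loci at similar levels. In limma without a trend, the adjusted p was 3.4e-04 for CLK2, 3.2e-04 for CLK3 and 2.3e-04 for DYRK1A. The intronic window of CLK2 is not reported here.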

Additional observations from a re-analysis of the deposited data

How the results depend on the processing

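Of the alternatives tried, the scaling alone changed the calls of the regulated kinases. With the same total per library, 0 members were regulated upward, SRPK2 was at 0.058 (adjusted p = 0.32, limma) and no longer passed the test, and SRPK1 and PRPF4B reversed to -0.23 and -0.030. With RPL34, 0 members were regulated upward, CLK3 and CLK4 were at 0.13 and 0.031 and no longer passed, and SRPK1, SRPK2 and PRPF4B reversed to -0.48, -0.19 and -0.28. SRPK1, at 0.01 in limma, also reversed with the upper quartile (-0.0098), with edgeR (-0.011) and without DMSO replicate 1, with a range of -0.0059 to 0.036 when each library was left out. Pathway genes regulated upward were 6 with the same total and 2 when RPL34 was used, beside 1647 and 1078 of all 17568 loci. Those regulated downward were 18 with RPL34, beside 7524 of all loci. The same 2 members were up-regulated and the same 1 was down-regulated under the pseudocounts of 0.1 and 10, both minima, the upper quartile, edgeR, DESeq2, limma without a trend, the adjusted p, loci with a symbol only and each library left out. With the length of all annotated exons, added after seeing the data, the difference of the CLK sum per kb reversed from 306 to -299, and that of the CLK2 share stayed at -22.8 percentage points. Same-numbered libraries did not deviate together (correlations from -0.039 to 0.019, against -0.03 to 0.028 between other numbers). With 3 libraries per group this cannot tell whether equal numbers mark pairs, and the titles give only replicate numbers. With the replicate block 2 members were regulated upward and 1 downward, while 2745 loci of all were regulated upward and 4173 downward (2751 and 4197 without the block). Kinase depth, at least 381 reads per library, limits CLK4 most. The cause of these changes beyond the shift of the median was not tested.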

Other observations

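SCAMP3, a membrane protein of endosomal recycling, is the next locus beyond the 3′ end of CLK2 on the same strand (chromosome 1, 155255980 to 155262360, minus strand) and was singled out after its values were seen. Its normalized read counts were 5021, 5076 and 4879.9 in DMSO and 8393, 8545 and 8312 in THZ531, a log2 fold change of 0.75 with a standard error of 0.04. It was thus up-regulated beside the down-regulated CLK2, and scaling to the same total gave 0.51 and scaling to RPL34 0.26.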
